A study of Mus musculus with 16 samples.

Results

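The NF-κB subunits and their inhibitors were followed as 10 genes, chosen by name and read out of the 24984 genes in each of the 16 count tables. The subunits were *Nfkb1*, *Nfkb2*, *Rel*, *Rela* and *Relb*. The inhibitors were *Nfkbia*, *Nfkbib*, *Nfkbie*, *Nfkbiz* and *Tnfaip3*. All 10 passed the filter on low counts in both tissues. Kidney and liver came from wild-type female C57BL/6 mice, 24 months old by the labels, that had received an AAV8 vector intravenously, carrying either a short hairpin RNA against *Fos* (sh*Fos*) or a non-targeting hairpin (NT). The study's methods place the injection at that age and the collection 3 months after it. Each tissue and treatment had 4 libraries of whole-tissue RNA, so both groups of a comparison carried the virus and no uninjected mice were included. The labels number the libraries but do not say which kidney and liver came from the same mouse, and the p-values measure the spread between these libraries.

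NF-κB transcription factors are dimers of 5 related subunits. In resting cells most dimers are held in the cytoplasm by inhibitor of κB proteins. In the canonical arm, receptors for TNF, interleukin-1 and bacterial products activate a kinase complex that marks IκBα, the product of *Nfkbia*, for destruction, and dimers of p65 (*Rela*) and p50 (from *Nfkb1*) enter the nucleus. In the non-canonical arm, the kinase encoded by *Map3k14* leads to processing of p100 (from *Nfkb2*) to p52, which pairs with RelB. Several inhibitors are themselves target genes and so form feedback loops. In kidney and liver the pathway is known for its part in inflammation and in the survival of epithelial cells and hepatocytes. *Fos* encodes a subunit of AP-1, another transcription factor of the inflammatory response, and the comparison asks how these genes stood in aged tissues given the hairpin against it.

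Kidney libraries held 14194543 to 15534665 reads on genes and liver libraries 16652150 to 18300277. Levels are given as CPM, the counts divided by the normalized library size, and 3 counts, the most that a count of 0 allows, come to 0.164 to 0.211 CPM (counting error only). *Fos* was between 4.23 and 6.71 CPM in NT kidneys and between 2.30 and 4.12 CPM in sh*Fos* kidneys, which did not overlap. It was between 1.12 and 3.70 CPM in NT livers and between 1.38 and 2.76 CPM in sh*Fos* livers, which did. The 10 kidney marker genes summed to at least 13033 CPM in every kidney and at most 5.95 CPM in any liver, and the 10 liver marker genes to at least 84954 CPM in every liver and at most 1564 CPM in any kidney. Of the defining markers of macrophages, T cells, B cells, neutrophils and endothelium, none was at 0 throughout a group. In each tissue, NT replicate 4 stood apart from its group. By chi-square over genes, divided by its degrees of freedom, it differed from the other NT livers by 334 to 431 (40.7 to 60.2 among the others) and from the other NT kidneys by 63.6 to 67.7 (7.17 to 13.004 among the others). In whole tissue, fewer cells of a type and less RNA per cell cannot be told apart.

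Promoter windows show where the motif letters of NF-κB and AP-1 stand near these genes. RefSeq windows of the GRCm38.p6 build were found for 7 of the 10 members, in 10 windows, and *Nfkb1*, *Relb* and *Nfkbiz* had none in that table. The 250 bases before each start were searched on both strands for a κB motif (GGG, any 2 bases, then TTTCC) and for an AP-1 motif, TGANTCA. The κB letters were in windows of *Nfkb2*, *Rel*, *Nfkbia* and *Tnfaip3*, and in 1.41% of the 32851 windows of all genes. The AP-1 letters were in windows of *Nfkb2*, *Nfkbie* and *Tnfaip3*, and in 6.75% of all windows. No match overlapped another. Each match describes the letters and not binding, and similar sites written in other letters were not counted. *Nfkbia*, *Tnfaip3* and *Nfkbie* are printed because they show the κB letters alone, both motifs and the AP-1 letters alone. The runs lie outside exons and are read in the direction of the gene, with the motif in capitals (a κB match on the opposite strand appears as its reverse complement).
Nfkbia, chr12:55492648-55492897, minus strand, κB letters 29 to 20 bases before the start: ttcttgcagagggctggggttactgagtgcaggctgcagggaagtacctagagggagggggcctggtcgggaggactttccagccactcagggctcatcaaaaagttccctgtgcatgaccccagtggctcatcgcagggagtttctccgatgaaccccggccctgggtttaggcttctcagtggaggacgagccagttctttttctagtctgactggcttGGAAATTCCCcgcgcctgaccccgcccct
Tnfaip3, chr10:19015411-19015547, minus strand, AP-1 letters 136 to 130 and κB letters 12 to 3 bases before the start: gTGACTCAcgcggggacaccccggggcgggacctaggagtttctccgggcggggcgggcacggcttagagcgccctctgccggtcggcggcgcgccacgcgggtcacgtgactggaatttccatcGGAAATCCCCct
Nfkbie, chr17:45555450-45555699, plus strand, AP-1 letters 156 to 150 bases before the start: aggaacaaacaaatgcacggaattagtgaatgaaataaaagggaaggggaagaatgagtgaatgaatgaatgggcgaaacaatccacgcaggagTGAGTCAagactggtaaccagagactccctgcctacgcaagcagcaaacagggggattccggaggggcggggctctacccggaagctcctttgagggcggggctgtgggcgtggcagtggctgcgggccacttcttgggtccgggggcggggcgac

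Per transcript length, *Nfkbia* was the most abundant member in all 4 groups and *Rel* the least. Levels per length (TPM) came from the counts and the exon lengths of GENCODE M21. In NT kidneys *Nfkbia* stood at 113 ± 11.4 TPM (SD, n = 4), ahead of *Rela* at 69.6 ± 4.19 and *Nfkbib*, which encodes IκBβ, at 60.9 ± 12.9. *Rela* and *Nfkbib* overlapped. A middle group followed, in which each gene overlapped its neighbour: *Nfkb2* at 25.6 ± 5.49 TPM, *Nfkbiz* at 19.5 ± 4.72, *Relb* at 16.2 ± 4.71, *Nfkbie* at 15.8 ± 5.37 and *Nfkb1* at 12.6 ± 1.82. *Tnfaip3*, which encodes the ubiquitin-editing enzyme A20, was at 6.01 ± 0.882 TPM and *Rel*, the subunit best known from lymphocytes, at 0.506 ± 0.183 TPM, with no overlap between them or with the gene above. In the other 3 groups as well, *Nfkbia*, *Rela* and *Nfkbib* led and *Tnfaip3* and *Rel* came last. The place that moved most was that of *Nfkbiz*, which encodes the nuclear protein IκBζ. It was the fifth gene in NT kidneys and the eighth in sh*Fos* kidneys, at 9.06 ± 3.07 TPM, where it still overlapped *Relb* above it. In livers it was the fourth gene with either vector, at 13.5 ± 6.07 TPM (NT) and 9.86 ± 1.06 TPM (sh*Fos*), and overlapped *Nfkb2* below it. *Relb* was in the eighth place in livers, at 3.42 ± 1.67 TPM (NT) and 3.16 ± 1.03 TPM (sh*Fos*). Every member, and not *Relb* alone, had a lower mean TPM in NT livers than in NT kidneys. That comparison depends on how the tissues are scaled.

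**Figure D1:**
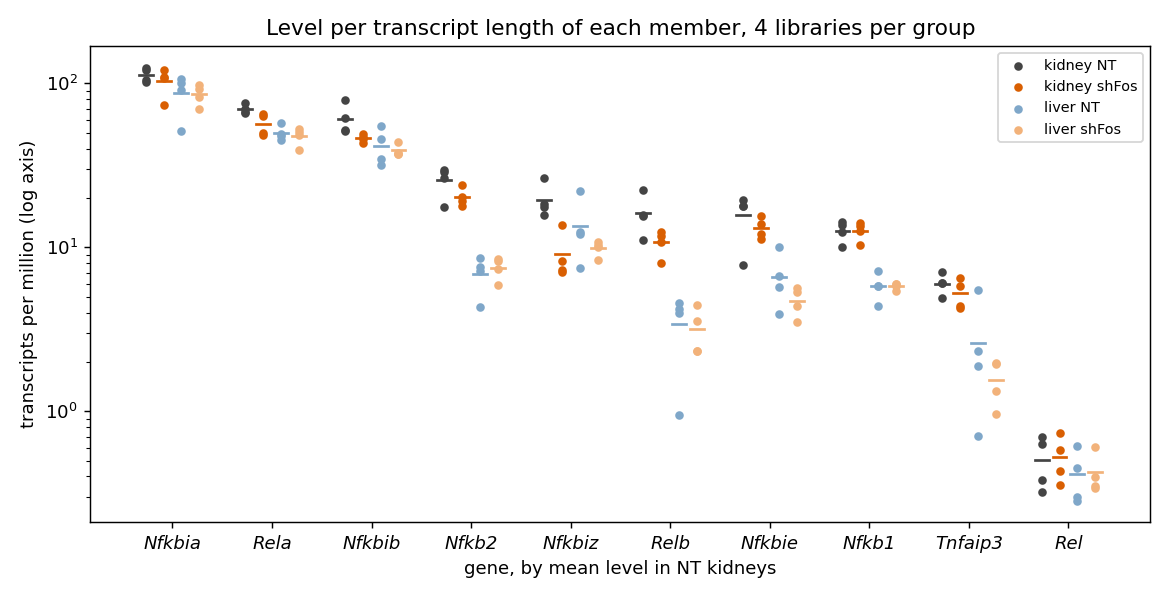
Level of each member in TPM (level per transcript length, log axis) in each library, with the group mean as a short line. *Nfkbia*, *Rela* and *Nfkbib* lead in every group, *Rel* is near 0.5 TPM or lower, and *Nfkbiz* is 19.5 TPM on average in NT kidneys and 9.06 TPM in sh*Fos* kidneys.

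In the kidney, *Nfkbiz* had the largest difference between sh*Fos* and NT of the 10 members, with levels in sh*Fos* kidneys at about 0.480 of those in NT kidneys. Its product is an atypical nuclear IκB that acts as a co-activator of a subset of NF-κB targets. The gene (ENSMUSG00000035356.17) spans bases 55811375 to 55838899 of chromosome 16 on the minus strand in GENCODE M21 (GRCm38). In NT replicates 1 to 4 it was at 28.0, 30.7, 25.2 and 42.7 CPM, and in sh*Fos* replicates 1 to 4 at 21.5, 12.0, 14.02 and 13.2 CPM. All 4 sh*Fos* kidneys were below all 4 NT kidneys, with sh*Fos* replicate 1 nearest to the NT range and NT replicate 4 the highest. The means were 31.7 ± 7.68 and 15.2 ± 4.27 CPM (SD, n = 4; exact two-sided permutation test, p = 0.0286, the smallest it can give, and 0.286 after Benjamini-Hochberg adjustment over 20 tests). The log2 fold change was -1.06 (standard error, SE, of 0.22, 95% interval -1.56 to -0.56), and edgeR's quasi-likelihood test over 14892 genes gave it an adjusted p of 0.066. *Nfkbiz* thus missed the threshold of 0.05 in that fit, as every gene did. It passed in DESeq2 (adjusted p = 0.00112) and in a fit of all 16 libraries (adjusted p = 0.0327 from edgeR). It also passed without sh*Fos* replicate 1 (log2 fold change -1.32, adjusted p = 0.00284 from edgeR) and without that library and NT replicate 4 (-1.13, adjusted p = 0.000202 from edgeR). These were the only 4 of the 20 settings, the main one included, in which it passed. The largest adjusted p was 0.192 (edgeR without sh*Fos* replicate 4). Over all 20 settings its log2 fold change lay between -1.32 and -0.88. The correction for GC content left it at -1.11. Summed neutrophil markers were also highest in NT replicate 4, at 29.6 CPM against 8.94 to 13.3 CPM in the other NT kidneys and 6.53 to 10.7 CPM in sh*Fos* kidneys. Without that library the log2 fold change of *Nfkbiz* was -0.88 (adjusted p = 0.0884 from edgeR).

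None of the 10 members was called in the kidney by edgeR at an adjusted p under 0.05, where 0% of all genes were called. At an unadjusted p under 0.05 there were 3 members, *Nfkbiz*, *Relb* and *Rela*, all lower in sh*Fos* kidneys, beside 31.9% of all genes in either direction and 14.8% lower in sh*Fos* kidneys. DESeq2 called 1 member, *Nfkbiz*, beside 19.7% of the 13681 genes to which it gave an adjusted p (8.3% lower in sh*Fos* kidneys). The fit of all 16 libraries also called *Nfkbiz* alone of the members (6.45% of all genes, 2.58% lower), as did the fit without sh*Fos* replicate 1 (27.5% of all genes, 15% lower). Without NT replicate 4 and sh*Fos* replicate 1, edgeR called 4 members, all lower: *Nfkbiz*, *Nfkb2*, *Relb* and *Nfkbie* (34.9% of all genes, 18.5% lower). NT replicate 4 was the lowest NT kidney for *Nfkb2*, *Relb* and *Nfkbie*, and sh*Fos* replicate 1 the highest sh*Fos* kidney for *Nfkbiz*. Leaving each out by itself widens those differences. By the chi-square, sh*Fos* replicate 1 differed from its group by 27.3 to 58.5, and sh*Fos* replicate 3, which was kept, by 30.6 to 58.5. The groups did not overlap for 2 members, *Nfkbiz* and *Rela*, both lower, beside 17.2% of all genes (8.04% lower). The fitted change was below 0 for 8 members (49.7% of all genes), and the members' median log2 fold change was -0.22 where that of all genes was 0.0023. After the correction for GC content the members' median was -0.053.

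*Rela* encodes the main transactivating subunit of the canonical arm (ENSMUSG00000024927.8, chromosome 19, 5637483 to 5648130, plus strand). It was at 65.7, 71.4, 64.6 and 74.6 CPM in NT kidneys 1 to 4 and at 62.6, 64.5, 51.2 and 54.9 CPM in sh*Fos* kidneys 1 to 4. The groups were separate by a narrow gap, between sh*Fos* replicate 2 and NT replicate 3. Its log2 fold change was -0.24 (SE 0.097, adjusted p = 0.124 from edgeR, exact permutation p = 0.0286, adjusted 0.286), and it was -0.020 after the correction for GC content.

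*Relb* encodes the partner of p52 in the non-canonical arm (ENSMUSG00000002983.17, chromosome 7, 19606217 to 19629438, minus strand). It was at 19.4, 29.0, 19.2 and 13.8 CPM in NT kidneys and at 14.3, 15.9, 14.1 and 11.5 CPM in sh*Fos* kidneys. The groups overlapped through NT replicate 4, the lowest of its group, while the other NT kidneys were above every sh*Fos* kidney. On the log2 scale the fold change was -0.54 (SE 0.21, adjusted p = 0.12 from edgeR), and -0.31 after the correction for GC content. It was -0.33 without NT replicate 2, the highest library (adjusted p = 0.267 from edgeR), and -0.73 without NT replicate 4 and sh*Fos* replicate 1 (adjusted p = 0.0196 from edgeR).

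*Nfkb2* (ENSMUSG00000025225.15, chromosome 19, 46304320 to 46312385, plus strand) encodes the precursor of p52, and NT replicate 4 was again the lowest NT kidney. It was at 38.4, 45.2, 42.1 and 26.0 CPM in NT kidneys and at 29.2, 36.4, 29.5 and 30.4 CPM in sh*Fos* kidneys. NT replicate 4 was below all sh*Fos* kidneys and the other NT kidneys were above them all. For *Nfkb2* the log2 fold change was -0.27 (SE 0.16, adjusted p = 0.282 from edgeR), -0.034 after the correction for GC content and -0.42 (adjusted p = 0.0172 from edgeR) without NT replicate 4 and sh*Fos* replicate 1. Its exons share 299 bases with *Psd* on the opposite strand, so its counts are uncertain.

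*Nfkb1* and *Rel* had intervals on both sides of 0 in the kidney. *Nfkb1*, the source of p50 (ENSMUSG00000028163.17, chromosome 3, 135584655 to 135691547, minus strand), was at 52.3, 49.7, 54.5 and 39.2 CPM in NT kidneys and at 47.7, 54.1, 57.1 and 46.1 CPM in sh*Fos* kidneys. The groups overlapped throughout, and the log2 fold change of 0.067 had a 95% interval from -0.20 to 0.34. *Rel* (ENSMUSG00000020275.9, chromosome 11, 23736847 to 23770970, minus strand) was counted on only 12 to 26 reads per kidney. Its levels were 1.64, 0.944, 1.498 and 0.773 CPM in NT kidneys and 0.835, 1.06, 1.86 and 1.61 CPM in sh*Fos* kidneys. A difference was not detectable at this depth (log2 fold change 0.14, 95% interval -0.69 to 0.96).

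Among the other inhibitors, *Nfkbia* (ENSMUSG00000021025.8, chromosome 12, 55489410 to 55492647, minus strand) was nearly level in the kidney. It was at 51.9, 64.4, 54.0 and 64.7 CPM in NT kidneys and at 54.4, 58.8, 65.2 and 44.2 CPM in sh*Fos* kidneys. The ranges overlapped, with the highest and the lowest library both in the sh*Fos* group, and the log2 fold change was -0.079 (95% interval -0.37 to 0.22). *Nfkbib* (ENSMUSG00000030595.15, chromosome 7, 28758251 to 28767512, minus strand) was at 35.2, 44.1, 36.1 and 55.2 CPM in NT kidneys and at 33.4, 31.1, 34.6 and 36.9 CPM in sh*Fos* kidneys. Of its sh*Fos* kidneys 3 were below every NT kidney. For *Nfkbib* the log2 fold change was -0.33 (SE 0.15, adjusted p = 0.157 from edgeR), -0.069 after the correction for GC content and -0.18 without NT replicate 4, the highest library (adjusted p = 0.278 from edgeR). Its exons share 314 bases with *Ccer2* and 42 with *Sirt2* on the opposite strand, so its counts are uncertain too.

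*Nfkbie*, which encodes IκBε (ENSMUSG00000023947.8, chromosome 17, 45555703 to 45563169, plus strand), was at 17.3, 18.2, 18.95 and 7.67 CPM in NT kidneys and at 11.6, 15.7, 14.3 and 12.6 CPM in sh*Fos* kidneys. NT replicate 4 was below every other kidney, and the other NT kidneys were above every sh*Fos* kidney. Over all 8 kidneys its log2 fold change was -0.20 (SE 0.26, adjusted p = 0.63 from edgeR), and -0.047 after the correction for GC content (adjusted p = 0.926 from edgeR). It was -0.42 without NT replicate 4 (adjusted p = 0.0908 from edgeR) and -0.39 without it and sh*Fos* replicate 1 (adjusted p = 0.0308 from edgeR). *Tnfaip3* (ENSMUSG00000019850.11, chromosome 10, 19000910 to 19015657, minus strand) was at 13.9, 16.9, 14.004 and 11.3 CPM in NT kidneys and at 9.70, 13.97, 15.7 and 11.7 CPM in sh*Fos* kidneys. These ranges overlapped, and the log2 fold change was -0.14 (95% interval -0.54 to 0.27).

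Kidney NT replicate 4 was the lowest NT kidney for 6 members, *Nfkb1*, *Nfkb2*, *Rel*, *Relb*, *Nfkbie* and *Tnfaip3*, and the highest for the other 4, *Rela*, *Nfkbia*, *Nfkbib* and *Nfkbiz*. Its summed T cell markers were 6.12 CPM (34.7 to 62.3 CPM in the other NT kidneys), its B and plasma cell markers 19.1 CPM (115 to 294 CPM) and its macrophage markers 339 CPM (633 to 919 CPM). Lowest of the NT kidneys too were its kidney markers, at 13033 CPM (22360 to 24153 CPM), and its endothelial markers, at 386 CPM (563 to 592 CPM). Its liver markers were the highest, at 1561 CPM (446 to 785 CPM). The part of these differences in cell markers in the levels of the members was not tested. Without this library the log2 fold change was below 0 for all 10 members, beside 49.6% of all genes. It was close to 0 for *Nfkb1* (-0.025), *Rel* (-0.028) and *Nfkbia* (-0.028). The interval from edgeR lay wholly below 0 only for *Nfkb2*, *Relb*, *Nfkbie* and *Nfkbiz*.

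**Figure D2:**
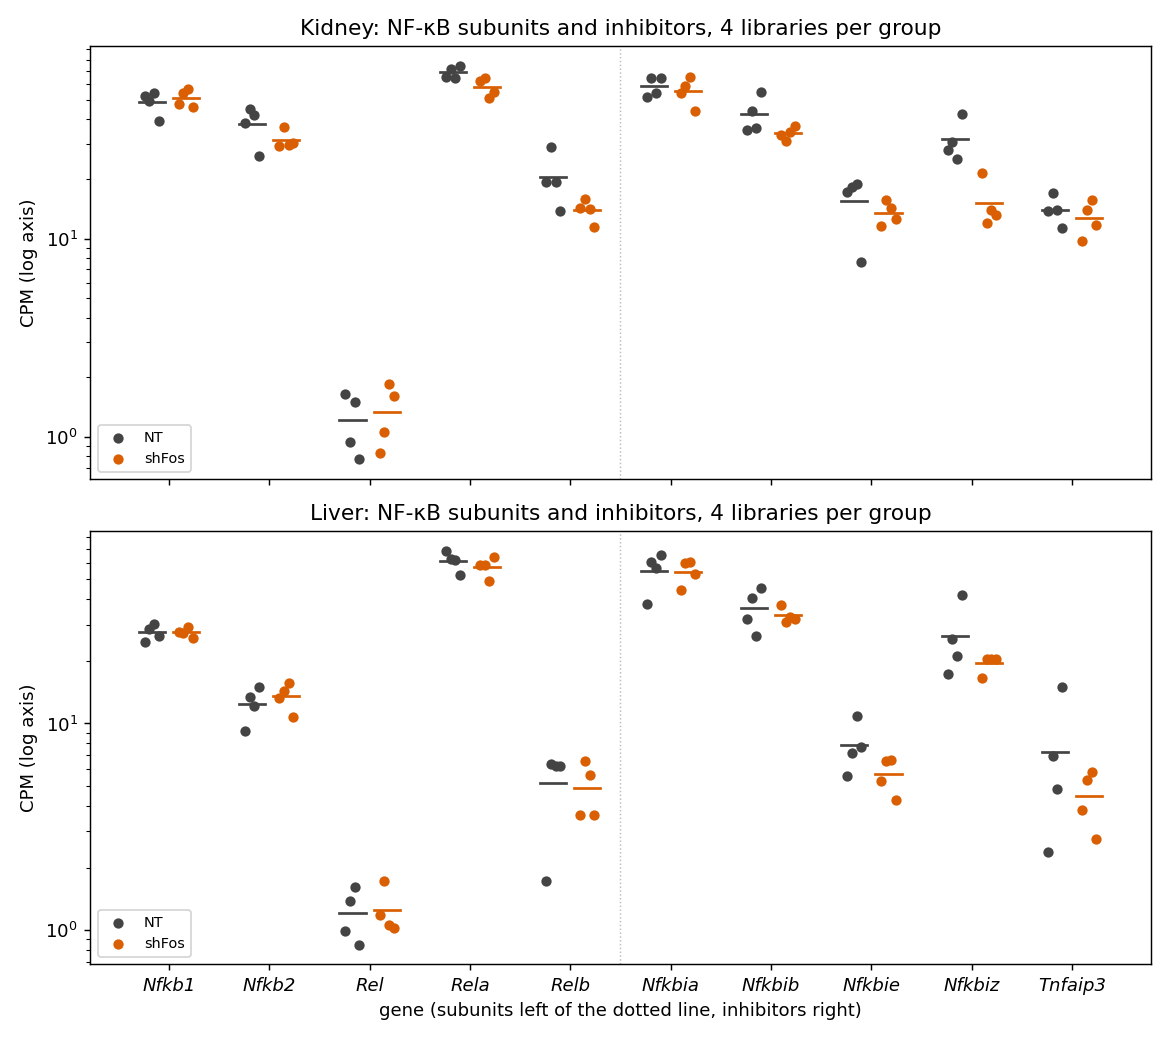
CPM (log axis, normalized within each tissue) of the 10 members in each library, left to right replicates 1 to 4, with group means as lines, for NT and sh*Fos* kidneys (top) and livers (bottom). *Nfkbiz* is separate between the kidney groups, at 25.2 to 42.7 CPM against 12.0 to 21.5 CPM, and *Tnfaip3* and *Nfkbiz* each have 1 high NT liver, replicate 4.

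In the liver, no member was called by edgeR, where 0% of 13144 genes were called, and none was at an unadjusted p under 0.05 or separate between the groups. Of all genes, 6.74% were at that p (3.16% lower in sh*Fos* livers) and 4.31% were separate (1.52% lower). DESeq2 also called none of the members, beside 0.306% of the genes to which it gave an adjusted p (0.166% lower). The fitted change was below 0 for 7 members (52.3% of all genes), with a median log2 fold change of -0.090 beside -0.012 for all genes.

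Most subunits were close to level in the liver. *Nfkb1* was at 24.7, 28.7, 30.5 and 26.6 CPM in NT livers and at 27.8, 27.6, 29.4 and 26.0 CPM in sh*Fos* livers. It was the member with the narrowest interval, from -0.22 to 0.22 around a log2 fold change of 0.0011. *Rela* was at 68.7, 62.6, 61.9 and 52.4 CPM in NT livers and at 58.6, 58.7, 49.0 and 64.4 CPM in sh*Fos* livers, with overlapping groups and a log2 fold change of -0.090 (95% interval -0.36 to 0.18). *Nfkb2* was between 9.17 and 15.0 CPM in NT livers and between 10.7 and 15.7 CPM in sh*Fos* livers (log2 fold change 0.12, 95% interval -0.28 to 0.51). *Rel*, on 15 to 31 reads, was between 0.847 and 1.72 CPM over all livers (log2 fold change 0.040, 95% interval -0.65 to 0.73). *Relb* was at 1.72, 6.35, 6.25 and 6.25 CPM in NT livers and at 3.59, 6.56, 5.64 and 3.59 CPM in sh*Fos* livers. NT replicate 1 was far below the other NT livers, and the 95% interval of the log2 fold change of -0.090, from -0.98 to 0.80, was wide.

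NT replicate 4 was the highest NT liver for 5 members, of which 4 were inhibitors: *Nfkbia*, *Nfkbib*, *Nfkbiz* and *Tnfaip3*. *Tnfaip3* was at 2.37, 6.98, 4.79 and 15.0 CPM in NT livers and at 3.82, 5.33, 5.81 and 2.75 CPM in sh*Fos* livers. NT replicates 4 and 2 were above every sh*Fos* liver and NT replicate 1 below them all. For *Tnfaip3* the log2 fold change was -0.72 (SE 0.50, adjusted p = 0.762 from edgeR), and -0.11 without NT replicate 4. *Nfkbiz* was at 17.4, 25.8, 21.3 and 41.8 CPM in NT livers and at 16.6, 20.6, 20.5 and 20.6 CPM in sh*Fos* livers. For *Nfkbiz* the log2 fold change was -0.44 (SE 0.25, adjusted p = 0.739 from edgeR), and -0.15 without NT replicate 4.

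*Nfkbie* was at 5.54, 7.21, 10.8 and 7.73 CPM in NT livers and at 5.27, 6.56, 6.63 and 4.25 CPM in sh*Fos* livers. The groups overlapped only through NT replicate 1, and the log2 fold change was -0.46 (SE 0.23, adjusted p = 0.735 from edgeR), or -0.27 without NT replicate 3, the highest library. *Nfkbia* was at 38.1, 60.4, 56.8 and 65.3 CPM in NT livers and at 44.3, 60.01, 60.5 and 53.2 CPM in sh*Fos* livers (log2 fold change -0.018, 95% interval -0.41 to 0.37). Replicate 1 was the lowest library in both groups. *Nfkbib* was between 26.5 and 45.1 CPM in NT livers and between 31.2 and 37.7 CPM in sh*Fos* livers (log2 fold change -0.11, 95% interval -0.48 to 0.26), so its sh*Fos* range lay inside the NT range. Without NT replicate 1, which was the lowest NT liver for 7 members, 3 inhibitors had an unadjusted p under 0.05: *Nfkbie* (-0.61), *Nfkbiz* (-0.60) and *Tnfaip3* (-1.01), as did 1224 of 13369 genes. None of them was called (adjusted p = 0.518, 0.513 and 0.53 from edgeR).

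**Figure D3:**
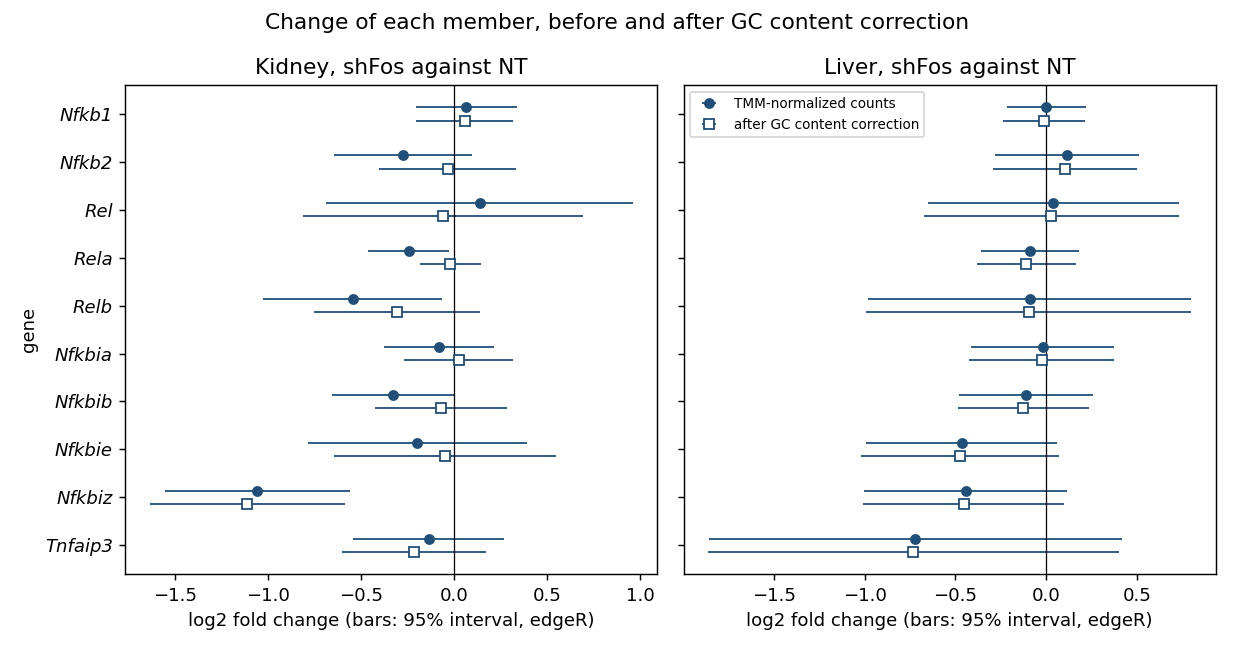
Log2 fold change of each member, sh*Fos* against NT, with its 95% interval from edgeR (n = 4 per group), in the kidney (left) and the liver (right). Filled circles are TMM-normalized counts and open squares the same after the correction for GC content, which takes *Rela* in the kidney from -0.24 to -0.020 and leaves *Nfkbiz* at -1.11.

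Liver NT replicate 4 also had the highest summed neutrophil markers, at 173 CPM against 28.6 to 59.9 CPM in the other NT livers and 10.1 to 48.6 CPM in sh*Fos* livers. *S100a8* and *S100a9*, the defining neutrophil genes, reached 36.8 and 51.5 CPM in NT livers and at most 9.09 and 16.2 CPM in sh*Fos* livers. *Lcn2*, an acute-phase gene and NF-κB target, ranged from 93.1 to 6151 CPM in NT livers and from 93.1 to 184 CPM in sh*Fos* livers. The liver, T cell and B and plasma cell marker sums of NT replicate 4 were the lowest of the NT livers. Its liver markers were at 84954 CPM (139721 to 217002 CPM in the others) and its T cell markers at 5.13 CPM (6.00 to 24.4 CPM). Its B and plasma cell markers were at 3.55 CPM (15.0 to 64.8 CPM). Its macrophage markers, at 872 CPM (321 to 1743 CPM), and its endothelial markers, at 134 CPM (119 to 157 CPM), lay within the range of the others. Of the sh*Fos* livers, replicate 1 had the highest neutrophil sum, at 48.6 CPM. In that 1 library *Tnfaip3* was at 3.82 CPM (2.75 to 5.81 CPM in the others) and *Nfkbiz* at 16.6 CPM (20.5 to 20.6 CPM). The part of neutrophils or of other cells in the levels of *Tnfaip3* and *Nfkbiz* was not tested.

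**Figure D4:**
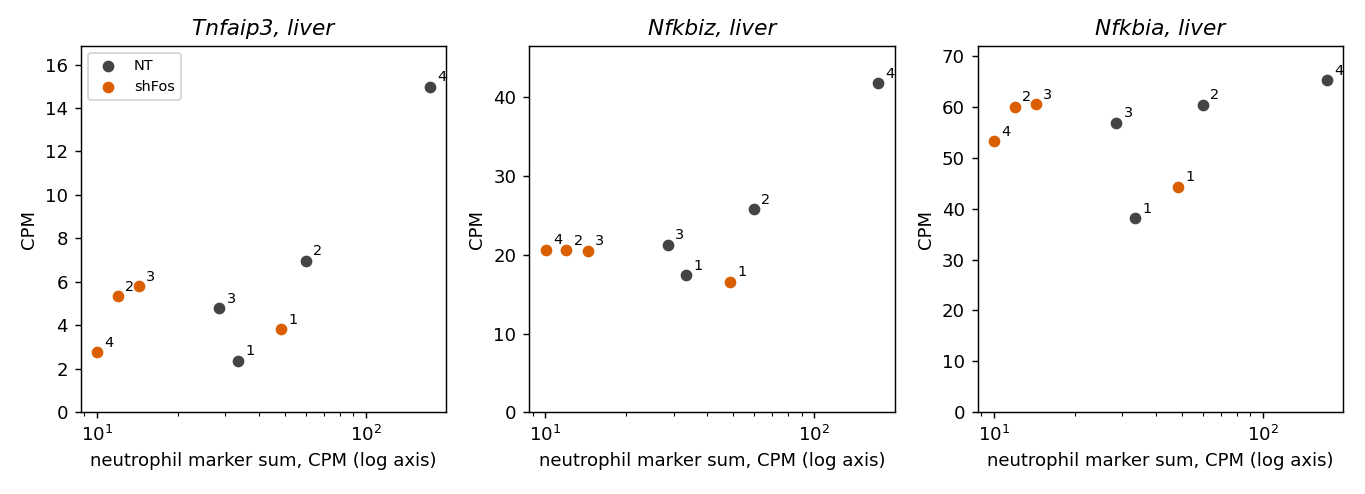
CPM of *Tnfaip3*, *Nfkbiz* and *Nfkbia* in each liver library (numbers are replicates) against the summed CPM of 9 neutrophil markers (log axis). NT replicate 4 lies apart, with 173 CPM of neutrophil markers, 15.0 CPM of *Tnfaip3* and 41.8 CPM of *Nfkbiz*.

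The response to sh*Fos* was compared between the tissues by the interaction of tissue and treatment in a fit of all 16 libraries. No member was called by edgeR (0% of 15421 genes), and none was at an unadjusted p under 0.05 (16.1% of all genes) or called by DESeq2. For *Nfkbiz*, the change in the liver minus that in the kidney was 0.63 on the log2 scale (SE 0.36, 95% interval -0.14 to 1.40, adjusted p = 0.402 from edgeR). With the replicate number as a block within treatment, it was 0.71 (95% interval 0.13 to 1.29, unadjusted p = 0.0212, adjusted p = 0.201 from edgeR). Without liver NT replicate 4 it was 0.94 (95% interval 0.30 to 1.58, unadjusted p = 0.00679, adjusted p = 0.164 from edgeR). Both intervals lay above 0, unlike the first, and neither value passed the threshold after adjustment. For *Tnfaip3* the difference was -0.57 (95% interval -1.76 to 0.61), -0.34 with the block within treatment and 0.055 without liver NT replicate 4.

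Ratios between members within a library do not depend on its scaling, but they were not corrected for GC content. The ratio of *Nfkbiz* to *Nfkbia* in TPM was 0.172 ± 0.0284 in NT kidneys (0.150 to 0.212) and 0.0893 ± 0.0283 in sh*Fos* kidneys (0.0657 to 0.127), with no overlap (exact permutation test, p = 0.0286, adjusted 0.19 over 10 tests). In the liver it was 0.152 ± 0.0371 (NT) and 0.116 ± 0.0077 (sh*Fos*), with overlap (exact permutation test, p = 0.0571, adjusted 0.19). The ratio of *Nfkb2* to *Nfkb1*, the precursors of p52 and p50, was 2.03 ± 0.271 in NT kidneys and 1.62 ± 0.186 in sh*Fos* kidneys (exact permutation test, p = 0.0571, adjusted 0.19), and 1.19 ± 0.226 and 1.28 ± 0.145 in livers. With the GC correction, the kidney log2 fold changes of these 2 genes were -0.034 for *Nfkb2* (-0.27 before) and 0.058 for *Nfkb1* (0.067 before). The overlap of *Nfkb2* with *Psd* also enters this ratio. The inhibitors summed to 1.74 ± 0.260 times the subunits in NT kidneys and 1.77 ± 0.216 times in sh*Fos* kidneys, with overlapping ranges. In livers these values were 2.28 ± 0.602 and 2.196 ± 0.257. None of the 10 ratio tests passed after adjustment. With 4 libraries per group the smallest p of this permutation test is 0.0286, so no single ratio could have passed. The adjusted values therefore do not decide whether a ratio differed.

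In NT mice, 7 of the 10 members were called different between liver and kidney by edgeR with TMM (64.7% of all genes). Those lower in the liver were *Relb* and *Nfkb2*, both of the non-canonical arm (34.4% of all genes were called lower). Those higher were *Rel*, *Nfkbia*, *Rela*, *Nfkbib* and *Nfkbiz* (30.2% of all genes). These directions depend on how the tissues are scaled, as the median log2 difference of all genes was -0.054 with TMM and -1.10 with library size alone, where all 10 members were lower in the liver. The 10 liver marker genes alone took between 84954 and 217002 CPM of a liver library. Relative to the median of all genes, the log2 difference, liver minus kidney, was -0.93 for *Relb*, -0.55 for *Nfkb2*, 0.066 for *Nfkbie*, 0.11 for *Tnfaip3*, 0.22 for *Nfkb1*, 0.79 for *Nfkbiz*, 0.80 for *Nfkbib*, 0.87 for *Rela*, 0.96 for *Nfkbia* and 1.04 for *Rel*. With library size alone the relative values of *Relb* and *Rela* were -0.90 and 0.87, almost the same.

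On the TMM scale the difference of *Rela* was 0.82 (SE 0.12, adjusted p = 1.19e-05 from edgeR) and that of *Nfkbia* 0.90 (0.16, adjusted p = 0.000162 from edgeR). That of *Relb* was -0.98 (0.33, adjusted p = 0.0156 from edgeR) and that of *Nfkb2* -0.61 (0.18, adjusted p = 0.00636 from edgeR). In sh*Fos* mice the same contrast gave *Relb* -0.52 and *Nfkb2* -0.21, neither called (adjusted p = 0.177 and 0.307 from edgeR). The calls also thinned to 4 members when the libraries numbered 2, or those numbered 3, were left out. *Nfkb1*, *Nfkbie* and *Tnfaip3* were not called with TMM (adjusted p = 0.171, 0.971 and 0.909 from edgeR). The ratio of *Relb* to *Rela* in TPM was 0.234 ± 0.0716 in NT kidneys and 0.0685 ± 0.0332 in NT livers, where the highest liver, 0.0942, was below the lowest kidney, 0.146.

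Across the 8 libraries of a tissue, the genes most like *Nfkbia* were found by the root mean square difference of z-scored log2 CPM. In the kidney they were *Lage3* (0.432), *Rspo1* (0.441) and *Gas1* (0.441), and the nearest member, *Tnfaip3* (0.9997), ranked 1671 of 14891 genes. In the liver they were *Dnajc27* (0.274), *4933427D14Rik* (0.277) and *Casp4* (0.281), and *Relb* was the next of 13143 genes (0.335), with *Tnfaip3* (0.602) at rank 113 and *Nfkb2* (0.632) at rank 159. These are descriptions over 8 libraries that share their depth and composition, in which replicates 1 were low for *Nfkbia* in both liver groups.

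The other genes of the pathway were followed as 73 genes in 5 lists by role. In the kidney 71 were tested, 41 of them with a fitted change below 0, and none was called by edgeR. At an unadjusted p under 0.05 there were 25, of which 19 were lower and 6 higher in sh*Fos* kidneys (31.9% of all genes in either direction). The median log2 fold change was -0.079, both before and after the correction for GC content. DESeq2 called 11 of the tested genes lower and 4 higher, where it called 19.7% of all genes and 8.3% lower. EdgeR without sh*Fos* replicate 1 called 16 lower and 5 higher, where it called 27.5% of all genes and 15% lower.

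The counts by role are at that unadjusted p, which 31.9% of all genes passed, 14.8% of all genes lower in sh*Fos* kidneys. Among them, 3 of the 17 receptors and adaptors in the kidney passed, all lower, and the smallest p belonged to *Birc2* (39.1 ± 2.86 CPM in sh*Fos* against 47.2 ± 3.75 in NT) and *Myd88*, the adaptor of Toll-like receptors (25.2 ± 0.864 against 29.9 ± 2.70). Of the 10 kinase and linear ubiquitin genes, 4 were lower and 1 higher. *Tab1*, a partner of the kinase TAK1, was at 20.3 ± 2.66 CPM against 30.1 ± 2.18 (log2 fold change -0.57, DESeq2 adjusted p = 0.00211), while *Chuk*, which encodes IKKα, was at 137 ± 18.3 against 98.2 ± 6.15 (0.48, DESeq2 adjusted p = 0.00238). The 6 genes of the non-canonical arm had 1 in each direction. These were *Map3k14*, at 14.7 ± 1.89 CPM against 19.6 ± 2.74, and *Traf3*, at 39.7 ± 3.38 against 33.0 ± 4.44. *Traf3* encodes an adaptor that promotes degradation of the *Map3k14* kinase. After the correction for GC content the log2 fold changes were -0.43 for *Birc2* (-0.27 before), -0.14 for *Myd88* (-0.24 before) and -0.36 for *Tab1*. They were 0.30 for *Chuk*, -0.22 for *Map3k14* (-0.41 before) and 0.33 for *Traf3* (0.27 before).

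Of 16 other inhibitors and partners, 5 were lower and 2 higher in sh*Fos* kidneys at that threshold. *Zc3h12a*, which encodes an RNase that degrades inflammatory transcripts and also *Nfkbiz* mRNA, was at 7.04 ± 1.03 CPM against 12.2 ± 1.27 (log2 fold change -0.79, DESeq2 adjusted p = 0.000602). *Rnf11*, a partner of A20, was at 186 ± 35.5 against 118 ± 17.8 (0.65, DESeq2 adjusted p = 0.00489). Of 22 tested targets, 6 were lower and 2 higher. The neutrophil chemokine *Cxcl1* was at 1.31 ± 0.186 CPM against 3.14 ± 0.971 (-1.25, DESeq2 adjusted p = 0.00584). *Sele*, an endothelial adhesion receptor, was at 2.45 ± 0.457 against 1.13 ± 0.287 (1.11, DESeq2 adjusted p = 0.0134). With the GC correction the log2 fold changes were -0.62 for *Zc3h12a*, 0.47 for *Rnf11*, -1.39 for *Cxcl1* and 1.01 for *Sele*. At that threshold every list except the receptors and adaptors held genes in both directions. EdgeR's adjusted p was no smaller than 0.066 for any gene named here. *Tab1*, *Chuk*, *Zc3h12a*, *Rnf11*, *Cxcl1* and *Sele* shared that value, so it does not rank them.

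In the liver 67 of the 73 pathway genes were tested, 52 with a fitted change below 0 (52.3% of all genes), and the median log2 fold change was -0.19 (-0.012 over all genes). EdgeR called none (0% of all genes). At an unadjusted p under 0.05 there were 8, all lower in sh*Fos* livers, beside 6.74% of all genes and 3.16% lower. DESeq2 called 2, beside 0.306% of all genes. Those were *Ltbr*, the lymphotoxin β receptor, at 81.4 ± 9.32 CPM against 118 ± 15.5 (log2 fold change -0.54, DESeq2 adjusted p = 0.0474), and *Ier3*, an immediate early target, at 2.04 ± 0.937 against 6.27 ± 1.98 (-1.62, DESeq2 adjusted p = 0.0135). The groups did not overlap for either. They did not overlap for 5 of the pathway genes, all lower, beside 4.31% of all genes (1.52% lower). *Tnfrsf1a*, the main TNF receptor, was at 83.3 ± 4.43 CPM in sh*Fos* livers against 130 ± 31.3 in NT livers (DESeq2 adjusted p = 0.0575), also without overlap, and *Myd88* at 17.996 ± 1.40 against 23.8 ± 4.84. *Zc3h12a* was at 6.19 ± 0.567 CPM against 10.2 ± 4.16. The remaining genes with the smallest p of their lists were *Ikbkg* (73.4 ± 5.69 against 62.2 ± 8.15 CPM), *Tab1* (3.83 ± 0.961 against 5.22 ± 1.16), *Tnfrsf12a* (5.76 ± 1.54 against 10.9 ± 8.02), *Nkap* (8.31 ± 0.623 against 9.68 ± 0.678) and *Lcn2*. Of these, *Ikbkg* was the one with a higher mean in sh*Fos* livers, and the groups of *Nkap* did not overlap.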

How the data were processed

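RNA-seq libraries of kidney and liver, 4 for each tissue and treatment, were analysed. The authors trimmed reads with Trimmomatic 0.39, mapped them to mm10 with HISAT2 2.2.1 and counted them per gene with HTSeq 0.12.4 without regard to strand, and the deposited tables hold these raw counts. The 5 summary lines of each table were left out. Reads on no gene made up 13.4% to 26.7% of each library. Because strand was ignored, overlapping genes on opposite strands cannot be told apart. Of the gene symbols, 98.2% were found in GENCODE M21, which gave positions, GC content and lengths, and the authors' annotation can differ from it.

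Counts of each tissue were modelled by edgeR 4.0.16 under R 4.3.3 (TMM, filterByExpr, robust quasi-likelihood test, Benjamini-Hochberg adjustment over all genes tested, calls at an adjusted p under 0.05). The interaction and the comparison of liver with kidney used 1 fit of all 16 libraries. TMM factors of a tissue entered its CPM. Exact two-sided permutation tests ran over the 70 assignments of 8 libraries (SciPy 1.17.1). Z-scores used log2 CPM with a prior count of 2. Alternatives were DESeq2 1.42.0, upper-quartile factors, other filters, a fit of all 16 libraries, edgeR's newer dispersion, corrections for GC content and length (lowess, span 0.3), a replicate block and each library left out. Added after seeing the data were scaling by library size alone, a replicate block within treatment and further libraries left out. The fits were tested on simulated data. The 10 members, the pathway lists and the marker lists were chosen with earlier results of these data known. Genes named are the 10 members, *Fos*, defining markers, for each pathway list and tissue the 2 genes with the smallest p, and for each tissue the 3 genes most like *Nfkbia*.

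Deviations of same-numbered NT and sh*Fos* libraries correlated between -0.26 and 0.12, so these numbers pair no samples. Those of same-numbered kidney and liver correlated at 0.12 to 0.40 in NT mice and 0.041 to 0.16 in sh*Fos* mice. The kidney correlated best with the liver of its own number for NT replicates 2, 3 and 4 and sh*Fos* replicates 1, 2 and 4. For NT replicate 1 and sh*Fos* replicate 3 it did not. The labels state no pairing, the correlations do not settle it, and the main fits used none.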

Additional observations from a re-analysis of the deposited data

Results flagged for a closer look

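Of the 40 groups of 4 values (10 members in each tissue and treatment), 3 had 1 library farther from the others than Dixon's criterion allows, where chance would give about 2. *Relb* was at 1.72 CPM in liver NT replicate 1 and at 6.25 to 6.35 CPM in the other NT livers. *Nfkbie* was at 7.67 CPM in kidney NT replicate 4 and at 17.3 to 18.95 CPM in the other NT kidneys. *Nfkbiz* was at 16.6 CPM in liver sh*Fos* replicate 1 and at 20.5 to 20.6 CPM in the other sh*Fos* livers.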

How the results depend on the processing

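In the kidney, the count of members called was 0 with edgeR and 1 with DESeq2, in the fit of all 16 libraries and without sh*Fos* replicate 1, each time *Nfkbiz*, and 4 without NT replicate 4 and sh*Fos* replicate 1 (*Nfkb2*, *Relb*, *Nfkbie* and *Nfkbiz*). All genes called numbered 2693, 994, 4126 and 5183 in these settings and 3 with no filter on low counts, and pathway genes called numbered 16 (genes below edgeR's filter included), 5, 21 and 32. With 1 library left out, members called ranged from 0 to 1, all genes called from 0 to 4126 and pathway genes called from 0 to 21. The correction for GC content moved the members' median to -0.053, and with length to -0.038, and turned *Rel* to -0.059 (-0.088 with length) and *Nfkbia* to 0.025 (0.081 with length). *Nfkb1* was -0.030 with library size alone and -0.028 without both libraries. With 1 kidney left out, *Nfkb1* ranged from -0.025 to 0.12, *Rel* from -0.060 to 0.32 and *Nfkbia* from -0.16 to 0.010. In the liver, DESeq2 called 37 genes and 2 pathway genes. *Nfkb1* was -0.0073 with DESeq2, -0.00083 with upper-quartile factors, -0.0021 with no filter, -0.011 with the GC correction and -0.0048 with length, and its CPM difference was -0.121 with DESeq2 size factors. With 1 liver left out, *Nfkb1* ranged from -0.058 to 0.052, *Nfkb2* from -0.011 to 0.21, *Rel* from -0.16 to 0.21, *Relb* from -0.38 to 0.030, *Nfkbia* from -0.17 to 0.069 and *Nfkbib* from -0.23 to 0.0051. For the interaction, DESeq2 called 343 genes, and leaving out a replicate number 0 to 448. With library size alone *Nfkb1* was 0.040 and *Rel* 0.019. With 1 number left out, *Nfkb1* ranged from -0.21 to 0.0026, *Rel* from -0.53 to 0.24, *Rela* from -0.058 to 0.24, *Nfkbia* from -0.0026 to 0.17, *Nfkbie* from -0.52 to 0.0092 and *Tnfaip3* from -0.94 to 0.24 (0.055 without liver NT replicate 4). Between tissues, members called ranged from 4 to 7 with 1 number left out, *Nfkbie* from -0.21 to 0.21 and *Tnfaip3* from -0.66 to 0.34. With library size alone the members that turned were *Nfkb1* (-0.87), *Rel* (-0.048), *Rela* (-0.23), *Nfkbia* (-0.13), *Nfkbib* (-0.30), *Nfkbie* (-1.01), *Nfkbiz* (-0.29) and *Tnfaip3* (-0.97). *Nfkbie* and *Tnfaip3* were -0.15 and -0.096 with upper-quartile factors, -0.21 and -0.66 without the NT libraries numbered 4, -0.25 and -0.52 in sh*Fos* mice and -0.12 and -0.23 over both treatments, and *Nfkbie* was -0.0031 with a mean of at least 10 counts. The causes were not tested.

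The replicate block gave 0 members called in each tissue and the interaction and turned *Relb* in the liver to 0.011. Between tissues, the block left 7 members called and turned *Tnfaip3* to -0.055, and the block within treatment left 7 called and turned it to -0.20. It changed no call of a member. *Rel*, on 12 to 31 reads per library, is limited by depth.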
